A study of Mus musculus with 12 samples.

Results

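Aminoacyl-tRNA synthetases, the enzymes that load each transfer RNA with its amino acid, were followed over 12 bead arrays of the mouse myoblast line C2C12. Members were taken by symbol from the probe annotation: a capital letter followed by ars, with nothing, 1 or 2 after it, together with Eprs, Farsa, Farsb and Tarsl2. The annotation held 36 such genes among 19057 genes with a probe of a single symbol, 20 for cytosolic and 16 for mitochondrial enzymes. Of these, 33 had a probe detected on at least 3 arrays and were tested among 10653 genes, namely all 20 cytosolic and 13 mitochondrial enzymes. The mitochondrial enzymes Hars2, Nars2 and Yars2, for histidine, asparagine and tyrosine, had no probe that passed this filter and were detected on 0 arrays.

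C2C12 myoblasts leave the cell cycle and fuse into myotubes when serum is lowered. The study compared cells along this step with cells given a mimic or an inhibitor of miR-206, a microRNA of muscle, with 3 arrays in each of 4 groups. Day1 and Day2 cells had been kept for 24 h and 48 h in differentiation medium with horse serum, and the labels call their state undifferentiated and beginning of differentiation. Mimic cells had been given a small RNA that mimics miR-206 and grown for 24 h (state undifferentiated), and antimiR cells had been given antimiR-206, which blocks that microRNA, and grown for 48 h (state beginning of differentiation). The same Lipofectamine protocol stands on all 12 samples, no control oligonucleotide is named for Day1 or Day2, and the medium of the treated cells is not stated. Effects of transfection and of the oligonucleotide on the synthetases therefore cannot be told apart. All cells are of a single clonal line. The labels number the replicates without saying that they were separate cultures, so each p-value reflects the spread of these arrays alone, and that spread may be technical.

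Synthetases fall into 2 structural classes that use different catalytic folds. Most amino acids have separate nuclear genes for a cytosolic and a mitochondrial enzyme, and by convention the mitochondrial gene ends in 2. Gars and Kars serve both compartments and are counted here with the cytosolic enzymes, and Eprs joins the glutamic acid and proline activities in a single chain. Several cytosolic enzymes sit together in the multisynthetase complex on the scaffold proteins Aimp1, Aimp2 and Eef1e1. When amino acids run short or the endoplasmic reticulum is stressed, the transcription factor ATF4 binds C/EBP-ATF response elements and raises amino acid synthesis, amino acid transporters and a set of mainly cytosolic synthetases. That set, as named in the literature, holds 12 of the 20 cytosolic genes here (Aars, Cars, Eprs, Gars, Iars, Lars, Mars1, Nars, Sars, Tars, Wars and Yars).

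Promoter windows of 300 bases, from 250 before to 50 after the gene start, were taken from RefSeq on GRCm38.p6 and matched 27 of the 36 genes by symbol. The 8 bases TGATGNAA, the core of the C/EBP-ATF response element, were searched on both strands. They were present in windows of 1219 of 27025 genes (4.51%) and of 5 synthetases, Aars, Gars, Iars, Tars and Yars, all of them cytosolic and on the literature list. That was 5 of the 8 listed genes with a window, 0 of the 5 other cytosolic genes and 0 of the 14 mitochondrial genes. The 4 windows below belong to genes that fell with the mimic and with antimiR-206, and Aars carries the core at 2 places. Yars, whose window is not shown, was not called in any comparison. Mars1, Sars, Mars2, Ears2 and Tars2 also fell against Day1 in both treated groups, and their windows lacked the core. A link between the core and the fall was not tested. Capitals mark the core, which on the strand shown reads as its reverse complement, and the run is 5′ to 3′ along the gene. Such a match describes the letters only and is not a measured binding site.
Aars, chr8:111033592-111033891, plus strand: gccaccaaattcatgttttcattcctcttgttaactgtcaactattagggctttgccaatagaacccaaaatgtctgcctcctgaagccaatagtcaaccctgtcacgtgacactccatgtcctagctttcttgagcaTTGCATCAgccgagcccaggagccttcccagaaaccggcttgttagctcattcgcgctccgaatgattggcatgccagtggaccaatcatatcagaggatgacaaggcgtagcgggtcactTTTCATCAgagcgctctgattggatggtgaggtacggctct
Gars, chr6:55037751-55038050, plus strand: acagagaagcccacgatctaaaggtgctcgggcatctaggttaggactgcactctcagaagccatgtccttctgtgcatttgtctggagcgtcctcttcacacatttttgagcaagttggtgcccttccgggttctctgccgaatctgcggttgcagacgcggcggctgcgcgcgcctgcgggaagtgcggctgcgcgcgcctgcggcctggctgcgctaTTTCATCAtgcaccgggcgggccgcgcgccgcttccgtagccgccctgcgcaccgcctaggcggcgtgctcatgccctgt
Iars, chr13:49681880-49682179, plus strand: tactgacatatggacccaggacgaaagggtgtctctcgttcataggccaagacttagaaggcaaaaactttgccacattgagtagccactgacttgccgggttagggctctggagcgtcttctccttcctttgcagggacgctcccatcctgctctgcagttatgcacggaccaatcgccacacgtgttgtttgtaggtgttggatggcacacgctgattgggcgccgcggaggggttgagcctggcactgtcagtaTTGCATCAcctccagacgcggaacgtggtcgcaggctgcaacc
Tars, chr15:11399609-11399908, minus strand: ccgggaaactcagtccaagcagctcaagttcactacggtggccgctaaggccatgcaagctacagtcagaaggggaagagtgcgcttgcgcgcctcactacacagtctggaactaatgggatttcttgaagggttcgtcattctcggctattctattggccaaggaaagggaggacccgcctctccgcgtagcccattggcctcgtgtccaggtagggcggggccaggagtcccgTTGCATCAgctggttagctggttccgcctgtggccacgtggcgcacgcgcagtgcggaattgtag
Read along the gene, the leftmost base of the match stood -112 and 9 bases from the gene start in Aars. It stood at -30 in Gars, 7 in Iars, -15 in Tars and 3 in Yars. In all but Yars the core lies on the opposite strand, so that base is the last of TGATGNAA. For reference, the mature microRNA that the mimic and the inhibitor address is given from RefSeq with its seed, bases 2 to 8, in capitals. The labels do not give the sequence of the mimic itself.
mmu-miR-206-3p: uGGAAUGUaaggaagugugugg

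Median raw intensity ran from 49.5 to 63.2 per array, and 16636 to 18234 of 45281 probes were detected. Myoblast markers were present in every group apart from Myf5, which was not detected on any array. The summed level of the 4 annotated myotube markers (Myog, Ckm, Acta1 and Tnni2) lay at 42508 to 51949 on the Day2 arrays. They lay at only 112 to 188 on Day1, 136 to 202 with the mimic and 156 to 208 with antimiR-206, and Ckm and Myog were not detected on Day1 or antimiR arrays, so the antimiR arrays did not carry the marker level of Day2 although both groups have the same labelled state. The osteoblast genes Sp7 and Ibsp and the macrophage gene Adgre1 were not detected in any group, and no adipocyte or endothelial marker passed the filter. The osteoblast gene Bglap2 was detected on all 12 arrays, rose by 1.902 (log2) from Day1 to Day2 and was lower by 1.34 with antimiR-206 than on Day2. The summed normalized intensity of the 3 tested osteoblast markers, of 5 annotated, was 130 to 173 on Day1, 382 to 505 on Day2, 127 to 229 with the mimic and 164 to 257 with antimiR-206. The macrophage gene Cd14, also detected on all 12 arrays, changed by -0.995 from Day1 to Day2 and was higher by 1.37 with antimiR-206 than on Day2. The 2 tested macrophage markers, of 3 annotated, summed to 132 to 159, 74.1 to 93.2, 149 to 164 and 179 to 188 in the same order of groups. The part of these genes in the synthetase results was not tested. In such bulk RNA, fewer cells of a type and less RNA per cell cannot be told apart. Replicate 1 of the mimic stood apart: over all genes its mean correlation was 0.993 with the Day1 arrays and 0.971 with the other mimic arrays. Mimic results of the synthetases are therefore also given without it, which leaves 2 mimic arrays. The choice of array came from these same data. P-values without it are therefore likely too small and counts of calls too high, and both serve as description only.

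Many synthetase transcripts were lower in both treated groups than in Day1 cells, and most of the calls were of cytosolic enzymes. A gene was called at a limma adjusted p of 0.05, with Benjamini-Hochberg adjustment over all 10653 genes. With the mimic, 13 of 33 tested synthetases fell and 0 rose, against 4.08% of all genes that fell and 4.38% that rose. With antimiR-206 against Day1, 22 of 33 fell and 0 rose, against 9.78% of all genes that fell and 12.9% that rose. This comparison sets 48 h against 24 h, so time and treatment cannot be told apart in it. Against Day2, the group of the same 48 h, antimiR-206 had 14 lower and 4 higher synthetases, beside 24.9% of all genes lower and 26.5% higher. These groups differ in myotube marker level, and the medium of the treated cells is not stated. Differentiation, medium and treatment therefore cannot be told apart in that comparison. From Day1 to Day2 without either oligonucleotide, 9 synthetases fell and 1 rose, beside 29.0% of all genes lower and 28.2% higher. The lower share was thus near that of all genes. Between antimiR-206 and the mimic limma called 0 synthetases and 0 of all genes (0%), and 3 synthetases, Mars1, Sars2 and Tarsl2, had an unadjusted p under 0.05.

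The medians followed the same split by compartment. With the mimic the median log2 change was -0.77 over the 20 cytosolic and -0.35 over the 13 tested mitochondrial enzymes, beside 0.00 over all genes. For antimiR-206 against Day1 these medians were -0.94 and -0.45, beside 0.01. For antimiR-206 against Day2 they were -0.62 and -0.20, beside 0.03, and for Day2 against Day1 they were -0.16 and -0.13, beside -0.02. In counts, 10 of 20 cytosolic and 3 of 13 mitochondrial enzymes fell with the mimic, beside 4.08% of all genes. With antimiR-206 against Day1, 16 of 20 and 6 of 13 fell, beside 9.78%. Arrays lay below the control arrays with no overlap for 18 of 33 synthetases with the mimic (13.1% of all genes), 25 with antimiR-206 against Day1 (23.2%), 18 against Day2 (29.5%) and 14 from Day1 to Day2 (33.6%). No difference between the compartments was tested. By structural class, 7 of 18 class I and 6 of 16 class II enzymes fell with the mimic and 12 and 11 fell with antimiR-206 against Day1 (Eprs stands in both classes). Comparisons with a common control group share its arrays, so their counts are set side by side only.

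The mimic count rested on single arrays. Leaving out mimic replicate 1 gave 23 lower synthetases (16 cytosolic and 7 mitochondrial) beside 19.5% of all genes, while the count was 3 without Day1 replicate 1, 7 without Day2 replicate 2, and 0 without Day1 replicate 2 or 3 or without mimic replicate 2 or 3. In the antimiR comparison with Day1, the 22 calls became 12 without Day1 replicate 2 or 3 and 11 without antimiR replicate 1. When the arrays were only scaled to equal medians and not quantile-normalized, there were 0 called synthetases with the mimic, 0 for antimiR-206 against Day2, 1 (Cars) for antimiR-206 against Day1 and 1 (Hars) for Day2 against Day1, while every called synthetase but Farsb against Day2 kept its sign. That scaling put the median of all genes at 0.31 for antimiR-206 against Day2 and at 0.18 against Day1, in place of 0.03 and 0.01. Relative to those medians all 18 and all 22 called synthetases kept their direction. The calls that held whichever single array was left out were 0 of 13 with the mimic, 12 of 18 for antimiR-206 against Day2, 11 of 22 against Day1 and 6 of 10 for Day2 against Day1. Against Day1 these 11 were Aars, Cars, Ears2, Eprs, Gars, Iars, Lars, Mars1, Mars2, Sars and Tars. Against Day2 the 6 lost calls were Cars, Cars2, Farsb, Pars2, Tars2 and Tarsl2, and from Day1 to Day2 the 4 lost calls were Eprs, Farsa, Rars and Vars.

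**Figure D1:**
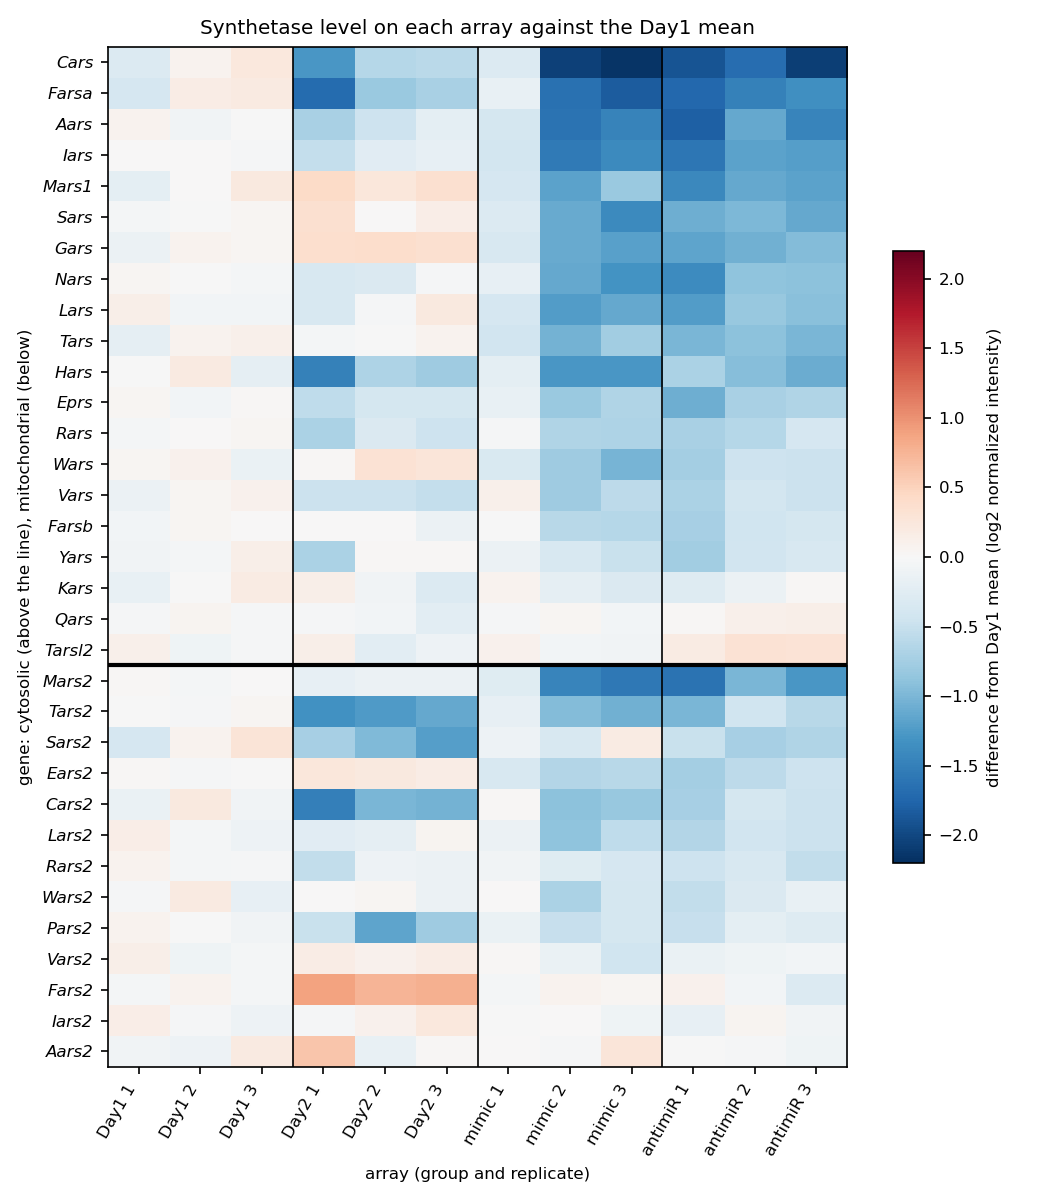
Heat map of each tested synthetase (rows, cytosolic above the line, mitochondrial below) on each of the 12 arrays (columns), as the difference in log2 normalized intensity from the gene's Day1 mean. Blue is lower and red higher; mimic replicate 1 is pale where mimic replicates 2 and 3 and the antimiR arrays are blue, and Fars2 is the deepest red on the Day2 arrays, with a mean change of 0.80.

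Mimic replicate 1 lay nearer the Day1 mean than the mean of the other mimic arrays for 30 of 33 synthetases (90.9%), and for 71.1% of all genes. It was the highest of the 3 mimic arrays for 28 of 33 synthetases, and for 4594 of 10653 genes. All 12 listed ATF4 targets were among these 28. Without this array the log2 changes with the mimic were -1.54 for Aars, -1.48 for Iars, -1.25 for Sars, -1.22 for Nars, -1.17 for Lars, -1.15 for Gars and -0.90 for both Tars and Wars. Among the mitochondrial enzymes they were -1.51 for Mars2, -1.01 for Tars2, -0.86 for Cars2, -0.72 for Lars2 and -0.63 for Ears2, all past the threshold. The other cytosolic enzymes called lower without it were Cars at -2.11, Farsa at -1.73, Hars at -1.28, Mars1 at -1.0003, Eprs at -0.74, Vars at -0.68, Rars at -0.67 and Farsb at -0.62. Wars2 and Pars2, with limma adjusted p of 0.0178 and 0.0486, complete the 23. The labels give no dose of mimic for any array.

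Most of the 12 synthetases named in the literature as ATF4 targets fell in both treated groups. With the mimic 10 of the 12 fell, and with antimiR-206 11 fell against Day1 and 10 against Day2. All genes stood at 4.08%, 9.78% and 24.9% lower in these comparisons. Their median changes were -0.88, -1.06 and -0.99. From Day1 to Day2 1 gene of this set, Eprs, fell, below the 29.0% of all genes, and the median was -0.14. The 8 other cytosolic enzymes (Farsa, Farsb, Hars, Kars, Qars, Rars, Tarsl2 and Vars) had 0 calls with the mimic and 5 lower with antimiR-206 against Day1. Against Day2 they had 1 lower and 1 higher, below the 24.9% and 26.5% of all genes. The medians were -0.41, -0.52 and -0.04. From Day1 to Day2, 4 of these 8 fell. Without mimic replicate 1 the mimic counts were 11 of 12 and 5 of 8, beside 19.5% of all genes. The difference between these sets of enzymes was not tested. The list rests on general literature knowledge and was chosen with earlier results of these data known, so these counts are description only.

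Cysteinyl-tRNA synthetase, Cars, had the largest fall of any synthetase with the mimic and with antimiR-206 against Day1. Its log2 normalized intensity was 6.58, 6.96 and 7.12 on the Day1 arrays, 5.61, 6.26 and 6.30 on Day2, 6.59, 4.83 and 4.72 with the mimic and 4.98, 5.22 and 4.82 with antimiR-206. Mimic replicate 1 lay within the Day1 range, and the other mimic arrays and all antimiR arrays lay below every Day1 and Day2 array. Cars changed by -1.505 ± 0.38 (log2, limma SE) with the mimic, a 2.84-fold fall (adjusted p = 0.0384), and by -2.11 (adjusted p = 1.08e-06) without mimic replicate 1. Against Day1 antimiR-206 gave -1.88 ± 0.38 (3.68-fold, adjusted p = 0.00739), and against Day2 -1.05 ± 0.38 (adjusted p = 0.035). The lowest detected probes stood at 4.62 to 4.75 per array, and the lowest Cars values lie close to them.

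Alanyl-tRNA synthetase, Aars, read 10.70, 10.54 and 10.61 on Day1, 9.89, 10.15 and 10.39 on Day2, 10.23, 8.99 and 9.15 with the mimic and 8.81, 9.49 and 9.16 with antimiR-206. All treated arrays were below all Day1 arrays, and mimic replicate 1 was again the highest of its group. The change was -1.16 ± 0.26 with the mimic (limma adjusted p = 0.0299) and -1.46 ± 0.26 with antimiR-206 against Day1 (adjusted p = 0.00515). Isoleucyl-tRNA synthetase, Iars, a member of the multisynthetase complex, read 9.26, 9.26 and 9.22 on Day1, 8.72, 9.003 and 9.07 on Day2, 8.85, 7.69 and 7.85 with the mimic and 7.66, 8.08 and 8.03 with antimiR-206. The Day1 arrays of Iars were close together, and every other array lay below them. Iars changed by -1.12 ± 0.24 with the mimic (limma adjusted p = 0.0242), by -1.33 ± 0.24 against Day1 with antimiR-206 (adjusted p = 0.00515) and by -1.01 ± 0.24 against Day2 (adjusted p = 0.00267).

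Seryl-tRNA synthetase, Sars, read 9.43, 9.47 and 9.51 on Day1, 9.83, 9.48 and 9.62 on Day2, 9.17, 8.37 and 8.07 with the mimic and 8.39, 8.49 and 8.34 with antimiR-206. Glycyl-tRNA synthetase, Gars, which charges glycine in both compartments, read 13.02, 13.22 and 13.19 on Day1, 13.51, 13.54 and 13.50 on Day2, 12.79, 12.04 and 11.96 with the mimic and 11.98, 12.08 and 12.19 with antimiR-206. For both genes every treated array was below every Day1 and Day2 array, and the antimiR arrays were close together. Sars changed by -0.94 ± 0.21 with the mimic (limma adjusted p = 0.0275) and by -1.24 ± 0.21 with antimiR-206 against Day2 (adjusted p = 0.000198). Gars changed by -0.88 ± 0.17 with the mimic (adjusted p = 0.0183) and by -1.43 ± 0.17 with antimiR-206 against Day2, a 2.70-fold fall (adjusted p = 8.48e-06). Against Day1 the antimiR changes were -1.07 for Sars and -1.06 for Gars. From Day1 to Day2 the Gars arrays did not overlap, and the change of 0.37 ± 0.17 did not pass (limma adjusted p = 0.0746).

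Methionyl-tRNA synthetase, Mars1, also a complex member, read 9.53, 9.75 and 9.96 on Day1, 10.16, 9.99 and 10.10 on Day2, 9.38, 8.56 and 8.93 with the mimic and 8.33, 8.62 and 8.56 with antimiR-206. Its Day2 arrays were all above its Day1 arrays, though that change of 0.34 ± 0.18 did not pass (limma adjusted p = 0.116). Its fall of -1.58 ± 0.18 with antimiR-206 against Day2 (2.99-fold, adjusted p = 5.27e-06) was the largest of any synthetase in that comparison. Asparaginyl-tRNA synthetase, Nars, read 10.07, 10.03 and 9.99 on Day1, 9.68, 9.71 and 10.00 on Day2, 9.85, 8.91 and 8.72 with the mimic and 8.65, 9.15 and 9.13 with antimiR-206. Its Day1 and Day2 arrays overlapped, and its treated arrays were below all Day1 arrays. Nars changed by -0.87 ± 0.23 with the mimic (limma adjusted p = 0.0422) and by -1.05 ± 0.23 against Day1 with antimiR-206 (adjusted p = 0.0098), which became 0.0542 without antimiR replicate 1.

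Of the remaining listed targets, Lars (leucine) changed by -0.91 with the mimic and by -0.94 with antimiR-206 against Day2, and Wars (tryptophan) by -0.71 and -0.76. Eprs changed by -0.54 with the mimic (limma adjusted p = 0.0538), and it was called lower against Day1 both with antimiR-206, at -0.82, and on Day2, at -0.45. Yars, the tyrosine enzyme, was not called in any comparison. It lay near background, was detected on 10 of 12 arrays and had changes of -0.51 with antimiR-206 against Day1 and -0.32 with the mimic.

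**Figure D2:**
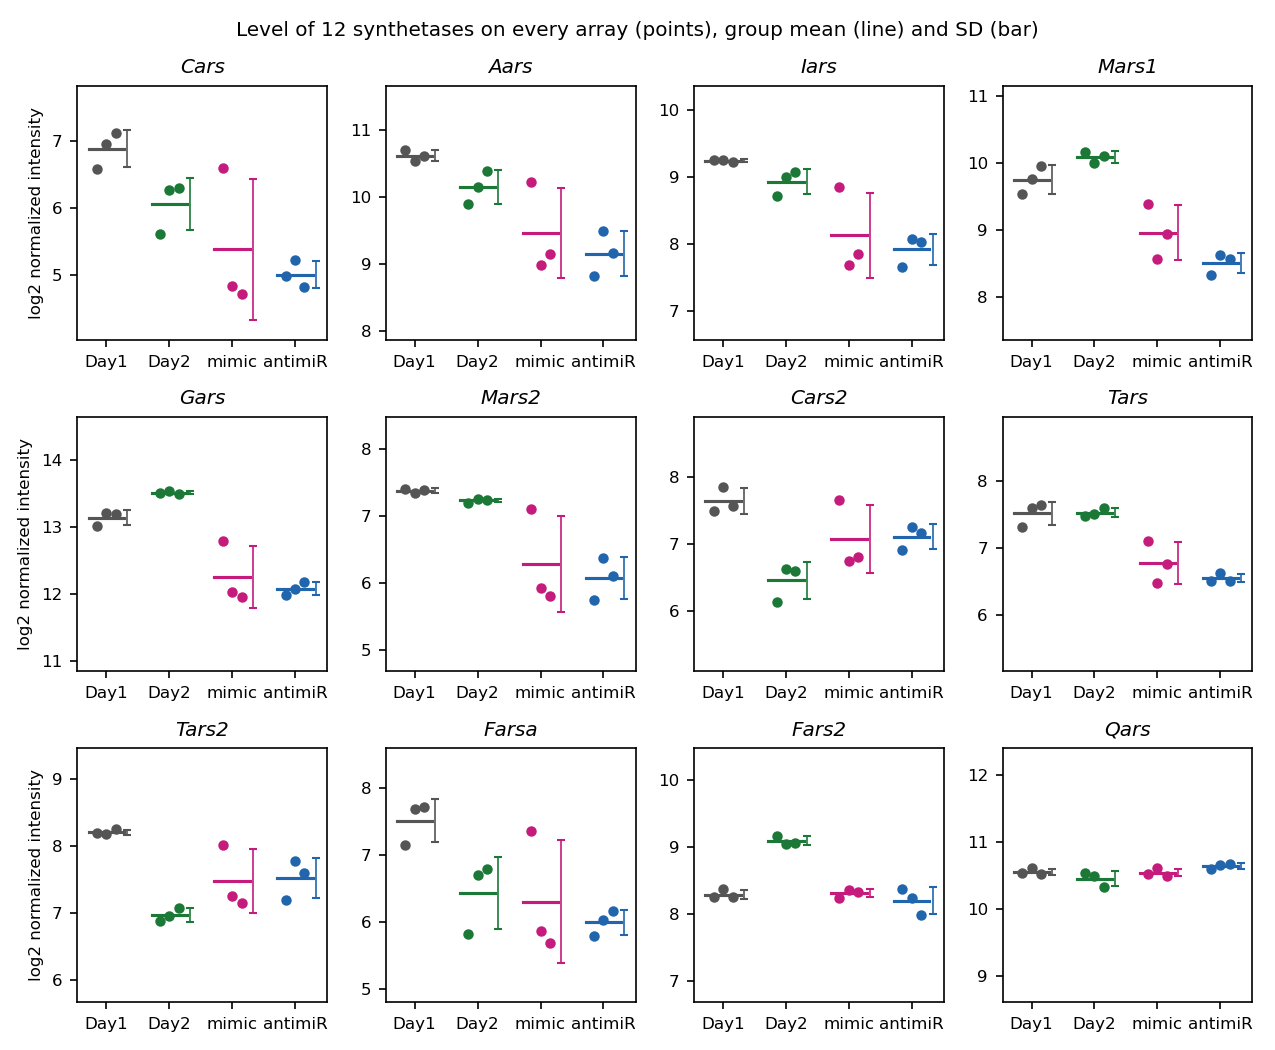
Log2 normalized intensity of 12 synthetases on every array (points) by group, with the group mean (horizontal line) and SD (bar) over 3 arrays; each panel has its own axis of equal span. For Cars the mimic points lie at 6.59, 4.83 and 4.72 while the antimiR points lie between 4.82 and 5.22, and Qars shows no call in any comparison.

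The phenylalanine enzyme of the cytosol is built of an alpha chain, Farsa, and a beta chain, Farsb. Farsa read 7.14, 7.68 and 7.71 on Day1, 5.82, 6.70 and 6.79 on Day2, 7.35, 5.87 and 5.68 with the mimic and 5.79, 6.03 and 6.16 with antimiR-206. Its Day2 and antimiR arrays were all below Day1, and mimic replicate 1 lay inside the Day1 range. Farsa changed by -1.07 ± 0.37 on Day2 (limma adjusted p = 0.0233) and by -1.52 ± 0.37 with antimiR-206 against Day1 (adjusted p = 0.0138). With the mimic its change was -1.21 ± 0.37 (adjusted p = 0.0577), and -1.73 (adjusted p = 3.2e-05) without mimic replicate 1. Without Day1 replicate 2 or 3 or Day2 replicate 1 the Day2 call was lost (highest adjusted p 0.122), and without Day1 replicate 2 or 3 or antimiR replicate 1 the antimiR call was lost (highest adjusted p 0.0635). Farsb changed by -0.04 on Day2, by -0.52 with antimiR-206 against Day1 (limma adjusted p = 0.0256) and by -0.47 against Day2 (adjusted p = 0.016). That last change turned to 0.08 (adjusted p = 0.937) with arrays scaled to equal medians.

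Hars, the histidine enzyme, fell by 0.98 on Day2 and by 0.90 with antimiR-206 against Day1, and it was detected on only 9 of 12 arrays, so its low values have little room above background. Rars (arginine) fell by 0.49 on Day2 and by 0.57 with antimiR-206 against Day1, and Vars (valine) fell by 0.49 and by 0.53. With antimiR-206 against Day2, none of Hars, Rars, Vars and Farsa was called. Kars (lysine) and Qars (glutamine), both complex members, were not called in any comparison. The 95% interval of the Qars change was -0.20 to 0.17 with the mimic and -0.10 to 0.27 with antimiR-206 against Day1, and for Kars the bounds were -0.46 to 0.17 and -0.44 to 0.19. Tarsl2, a threonyl-tRNA synthetase-like enzyme, was the only cytosolic enzyme called higher, at 0.34 ± 0.13 with antimiR-206 against Day2 (limma adjusted p = 0.0408). That call was lost in 11 of 22 alternatives, with a highest adjusted p of 0.162 when a single array was left out.

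Among the 7 tested complex enzymes (Eprs, Iars, Kars, Lars, Mars1, Qars and Rars), 3 fell with the mimic and 5 with antimiR-206 against Day1. Of the 13 cytosolic enzymes outside the complex 7 and 11 fell, beside 4.08% and 9.78% of all genes. Against Day2, 3 complex enzymes fell, and outside the complex 8 fell and 1 rose. All genes stood there at 24.9% lower and 26.5% higher. The difference between these 2 sets was not tested. Of the scaffold proteins, Eef1e1 fell by 0.93 on Day2, by 0.68 with the mimic and by 0.90 with antimiR-206 against Day1. Aimp2 changed by -0.52 on Day2 (limma adjusted p = 0.0715) and by -0.77 with the mimic (adjusted p = 0.0543), and it fell by 0.97 with antimiR-206 against Day1. Aimp1 fell by 0.60 on Day2, and its changes were -0.20 with the mimic and -0.29 with antimiR-206 against Day1 (adjusted p = 0.0555). Against Day2, Aimp1 was the only scaffold gene called, and it rose by 0.31.

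Mitochondrial synthetases, which serve the translation of the few proteins encoded in mitochondrial DNA, had calls in both directions. With antimiR-206 against Day2, 3 of 13 fell and 3 rose, near the 24.9% of all genes lower and 26.5% higher. From Day1 to Day2, 4 fell and 1 rose, beside 29.0% lower and 28.2% higher. Against Day1, 0 rose in either treated group. Mars2, the methionine enzyme, followed the cytosolic pattern: it read 7.41, 7.34 and 7.38 on Day1, 7.20, 7.25 and 7.25 on Day2, 7.11, 5.93 and 5.81 with the mimic and 5.75, 6.38 and 6.10 with antimiR-206. Every treated array of Mars2 was below every Day1 and Day2 array. It changed by -1.09 ± 0.27 with the mimic (limma adjusted p = 0.0364), by -1.30 ± 0.27 with antimiR-206 against Day1 (adjusted p = 0.00763) and by -1.16 ± 0.27 against Day2 (adjusted p = 0.00259). Ears2, the glutamic acid enzyme, also fell in these comparisons, by 0.53, 0.59 and 0.80. Neither gene was called between Day2 and Day1.

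Tars2 and Cars2, for threonine and cysteine, were lowest on Day2. Tars2 read 8.19, 8.18 and 8.25 on Day1, 6.88, 6.95 and 7.07 on Day2, 8.02, 7.25 and 7.15 with the mimic and 7.20, 7.77 and 7.60 with antimiR-206. Cars2 read 7.48, 7.85 and 7.56 on Day1, 6.13, 6.62 and 6.60 on Day2, 7.65, 6.74 and 6.81 with the mimic and 6.90, 7.25 and 7.17 with antimiR-206. For both genes the Day2 arrays were below all others. From Day1 to Day2 Tars2 changed by -1.24 ± 0.20 (limma adjusted p = 0.000143) and Cars2 by -1.18 ± 0.22 (adjusted p = 0.000476). With antimiR-206 against Day2 both were higher, Tars2 by 0.55 ± 0.20 (adjusted p = 0.0354) and Cars2 by 0.65 ± 0.22 (adjusted p = 0.0259). These comparisons share the Day2 arrays. Against Day1, Tars2 with antimiR-206 was lower, with a change of -0.68 (adjusted p = 0.0297), while the Cars2 change was -0.53 (adjusted p = 0.108). With the mimic Tars2 fell by 0.73 (limma adjusted p = 0.0449), and Cars2 changed by -0.57 (adjusted p = 0.114), which became -0.86 (adjusted p = 0.00061) without mimic replicate 1.

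In the comparison of antimiR-206 with Day2, the cytosolic partners of these enzymes were called in the opposite direction, while Mars1 and Mars2 both fell. Against Day1, Tars and Tars2 both fell with the mimic and with antimiR-206. Tars read 7.32, 7.61 and 7.64 on Day1, 7.48, 7.51 and 7.60 on Day2, 7.11, 6.48 and 6.77 with the mimic and 6.52, 6.63 and 6.52 with antimiR-206. The Day1 and Day2 arrays of Tars overlapped, with a change of 0.01 ± 0.15, and every treated array was below both groups. With antimiR-206 against Day2, Tars changed by -0.98 ± 0.15 (limma adjusted p = 0.000122) beside the rise of Tars2, and Cars by -1.05 beside the rise of Cars2. Each direction comes from the gene's own test, and the difference between partners was not tested. The Tars2 rise was lost in 8 of 22 alternatives (highest adjusted p 0.147 with an array left out) and the Cars2 rise in 4 (highest 0.116).

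Fars2, the mitochondrial phenylalanine enzyme, was the only synthetase called higher from Day1 to Day2 with all 12 arrays weighted alike. The number of higher calls was 5 with array weights, 3 with only the compared groups in the fit, and 3 without mimic replicate 1, when Gars (0.37, limma adjusted p = 0.000958) and Mars1 (0.34, adjusted p = 0.023) passed as well. It read 8.26, 8.37 and 8.25 on Day1, 9.17, 9.04 and 9.07 on Day2, 8.24, 8.36 and 8.34 with the mimic and 8.38, 8.24 and 7.99 with antimiR-206. The Day2 arrays stood above all other arrays, and the remaining groups overlapped. The rise was 0.80 ± 0.11 (1.74-fold, limma adjusted p = 3.39e-05), opposite in sign to Farsa, and antimiR-206 against Day2 gave -0.89 ± 0.11 (adjusted p = 1.69e-05). The mimic change of Fars2 was 0.02, with an interval of -0.22 to 0.26.

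Sars2, the serine enzyme, read 6.49, 6.94 and 7.15 on Day1, 6.13, 5.90 and 5.65 on Day2, 6.75, 6.51 and 7.04 with the mimic and 6.37, 6.14 and 6.19 with antimiR-206. Its Day2 and antimiR arrays were below all Day1 arrays, and its mimic arrays lay within the range of Day1. It fell by 0.97 on Day2 (limma adjusted p = 0.000667) and by 0.63 with antimiR-206 against Day1 (adjusted p = 0.0331). Between antimiR-206 and the mimic Sars2 had the largest change of any synthetase, -0.54 ± 0.19, and was the only one whose arrays lay lower with no overlap (4.06% of all genes did), but it did not pass (adjusted p = 0.952). Mars1, at -0.45, and Cars, at -0.38, were next and did not pass either, nor did Tarsl2, at 0.29, which is named here after its values were seen. Without mimic replicate 1 Mars1 stood at -0.24 and Cars at 0.23, and the median over the synthetases turned from -0.12 to 0.13. Those groups also differ in time, 48 h against 24 h.

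Pars2, the proline enzyme, fell by 0.81 on Day2 and was 0.47 higher with antimiR-206 than on Day2, where its arrays overlapped. Lars2 and Rars2, for leucine and arginine, fell by 0.52 and by 0.45 with antimiR-206 against Day1 and were called in no other comparison. The mitochondrial enzymes Aars2, Iars2, Vars2 and Wars2 were not called in any comparison, and their changes lay between -0.35 and 0.15. Without mimic replicate 1, however, Wars2 was called lower with the mimic, at -0.535 (limma adjusted p = 0.0178). The probe of Wars2 was detected on 11 of 12 arrays.

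**Figure D3:**
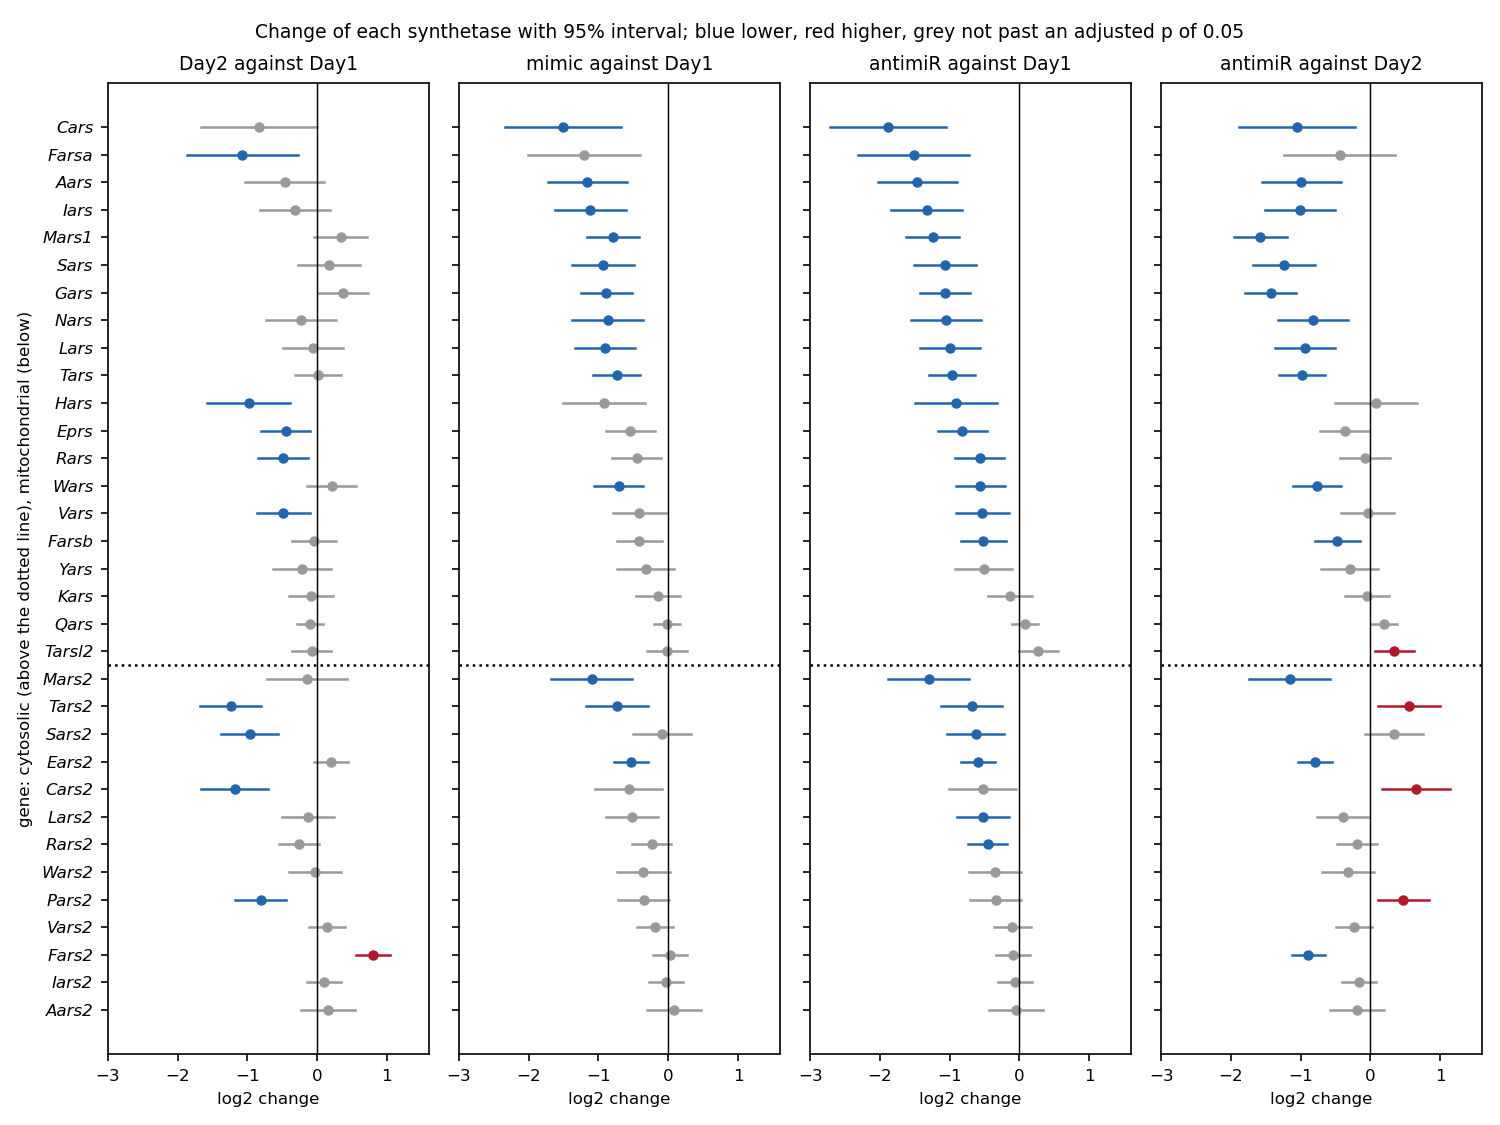
Log2 change of each tested synthetase with its 95% interval in 4 comparisons, cytosolic enzymes above the dotted line and mitochondrial enzymes below; blue marks genes called lower, red genes called higher and grey genes not past an adjusted p of 0.05. The mimic panel holds 13 lower calls and the panel of antimiR against Day1 holds 22. The panel of antimiR against Day2 holds 14 lower and 4 higher, and that of Day2 against Day1 holds 9 lower and 1 higher.

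Other probes of the same genes were examined beside the probe of highest mean. There were 29 further kept probes for 20 synthetases. Where the main probe was called, their sign was the same for 10 of 10 with the mimic, 16 of 16 for antimiR-206 against Day2 and 19 of 19 against Day1, and 5, 9 and 12 of them passed the test. For Day2 against Day1 it was the same for 8 of 10, and 0 passed in the opposite direction in any of these comparisons.

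Genes of the wider amino acid response were also mostly lower in both treated groups. Of 25 tested genes on that list, 19 fell with the mimic, 21 with antimiR-206 against Day1 and 18 against Day2, beside 4.08%, 9.78% and 24.9% of all genes. On Day2 5 rose and 6 fell against Day1, below the shares of all genes, 28.2% and 29.0%. A single gene of the list, Ddit4, an inhibitor of growth signalling, rose with antimiR-206, by 0.65 against Day1 and 0.57 against Day2. Cbs, cystathionine beta-synthase, named after its values were seen, read 6.90, 6.55 and 6.62 with antimiR-206, above its Day1 arrays at 5.55, 5.10 and 5.36. Its changes of 1.35 against Day1 and 1.06 against Day2 did not pass (limma adjusted p = 0.0526 and 0.074). On the mimic arrays Cbs read 4.66, 7.08 and 7.09, and without mimic replicate 1 the list had 21 genes lower and 3 higher with the mimic. With the mimic the largest changes were -3.39 for Trib3, a pseudokinase induced by stress, -2.80 for Chac1, which degrades glutathione, -2.29 for Aldh1l2, a mitochondrial folate enzyme, and -1.83 for Asns, asparagine synthetase. With antimiR-206 against Day2 they were -3.91 for Chac1, -3.60 for Trib3, -3.17 for Gpt2, an alanine aminotransferase, and -2.39 for Ddit3, the stress factor CHOP. From Day1 to Day2 Gpt2 rose by 1.84, while Phgdh, the first enzyme of serine synthesis, fell by 1.74 and Shmt2, a serine and glycine enzyme of mitochondria, fell by 1.41. Whether the synthetases and these genes share a cause was not tested.

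Of 10 tested amino acid transporters, 5 fell with the mimic and 7 with antimiR-206 against Day1, beside 4.08% and 9.78% of all genes. With antimiR-206 against Day2, 2 fell and 1 rose, beside 24.9% of all genes lower and 26.5% higher. From Day1 to Day2, 6 fell and 1 rose, beside 29.0% lower and 28.2% higher. Slc6a9, a glycine transporter, rose by 0.95 on Day2 and changed by -1.59 with the mimic and by -2.98 with antimiR-206 against Day2. The cystine transporter chain Slc7a11 changed by -1.34 and its partner chain Slc3a2 by -0.91 with the mimic. Slc7a11 read 6.46, 6.69 and 6.44 on Day1 and 6.42, 4.60 and 4.54 with the mimic. It was detected on only 1 of 3 mimic arrays, so its low values lie near background. Among translation factors, with the mimic 0 of 16 cytosolic and 0 of 13 mitochondrial factors were called, beside 4.08% of all genes lower. At an unadjusted limma p under 0.05 there were 5 and 3. With antimiR-206 against Day1 5 and 3 fell, beside 9.78% of all genes. Against Day2, 1 and 1 fell and 3 and 2 rose, beside 24.9% of all genes lower and 26.5% higher. Without mimic replicate 1 the mimic counts were 7 and 4 lower and 1 and 1 higher, beside 19.5% of all genes lower and 18.2% higher. No difference between these factors and the synthetases was tested. From Day1 to Day2, 7 cytosolic and 5 mitochondrial factors fell, beside 29.0% of all genes. Eif5 fell by 1.11 and Eif3b by 0.86 among the cytosolic initiation factors, while the mitochondrial factor Gfm2 rose by 0.92. Of 7 genes of tRNA export and processing, 2 fell with the mimic, beside 4.08% of all genes. These were Xpo5, an exportin, by 0.81 and Trnt1, which adds the CCA end of tRNAs, by 0.47. On Day2 Trnt1 fell by 1.25.

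**Figure D4:**
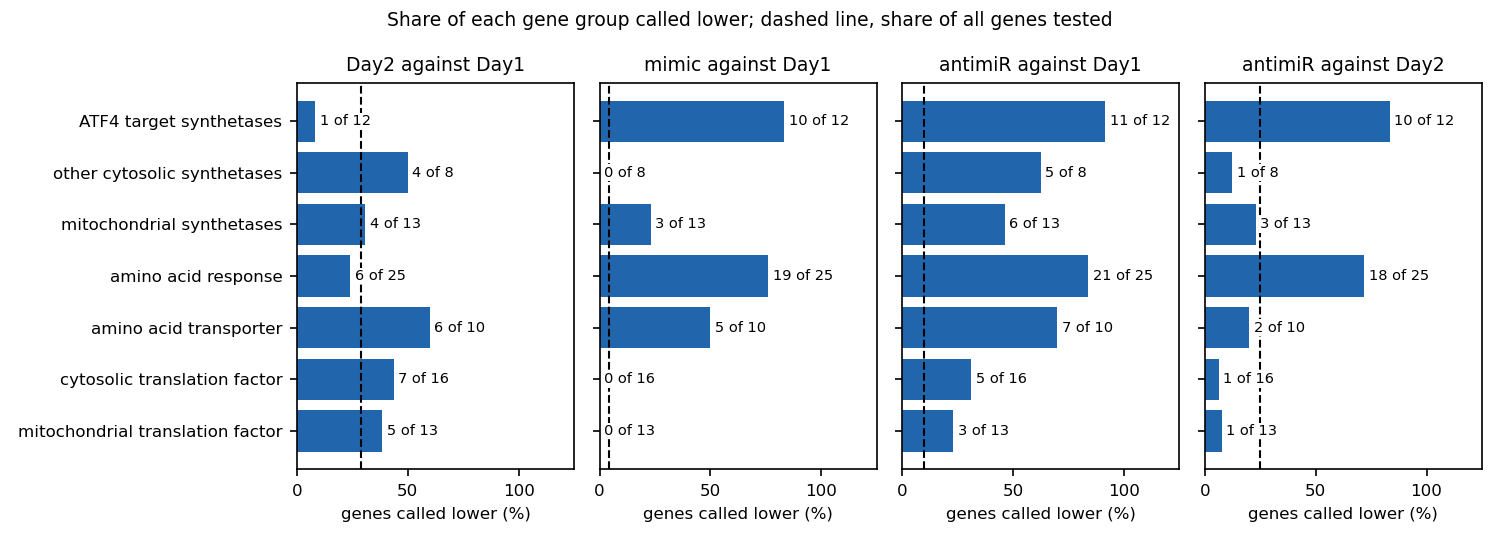
Share of tested genes called lower (bars, in percent, with counts) in each gene group and comparison; the dashed line marks the share of all 10653 genes. Listed ATF4 targets stand at 10 of 12, 11 of 12 and 10 of 12 in the mimic and antimiR panels and at 1 of 12 from Day1 to Day2. The gene groups were chosen with earlier results of these data known.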

How the data were processed

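RNA from 12 C2C12 samples was measured on Illumina bead arrays. The deposited scanner table holds raw probe intensity with a detection score beside it, which rises with brightness, so 1 minus the score served as detection p. The authors also deposited processed values on a log2 scale, made with lumi per the submitters' processing notes; version, background step and genome build are not given in the sources used here. Ranked, the scanner values of Day2 replicate 2 fit the processed values of replicate 3 and the reverse (rho 1, against 0.882 for equal labels); both are Day2.

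Intensities were corrected with limma 3.58.1 (R 4.3.3) by normexp (negative controls inferred from detection p; offset 16), quantile-normalized and taken to log2. Probes with a detection p under 0.05 on at least 3 of 12 arrays were kept (19809 of 45281). Of all probes, 34885 named a single gene, 18 several and 10378 none. The probe of highest mean over all arrays stood for each of 10653 genes. A single limma model of 4 group means with an intensity trend in the variance gave all 5 comparisons (8 residual and 5.36 prior degrees of freedom), two-sided, with Benjamini-Hochberg adjustment over all genes at 0.05. Changes are log2 differences with the limma SE. Detected probes ranged from 16636 to 18234 per array, and 3 arrays per group limit the precision. The fit was tested on simulated data.

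Values on every array are given for synthetases called with an absolute log2 change of at least 1, for the 3 largest changes in each comparison, and for cytosolic and mitochondrial partners called in opposite directions. Of every other list, up to 4 called genes of largest change were open to naming, and all complex partners. Members and lists were chosen with earlier results of these data known, and the ATF4 list rests on general literature knowledge. Alternatives covered scaling, background correction, the authors' processed values, filters, the samples in the fit, array weights, a replicate block, the variance trend, the choice of probe and each array left out in turn.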

Additional observations from a re-analysis of the deposited data

How the results depend on the processing

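Counts of called synthetases were 10 for Day2 against Day1, 13 for mimic against Day1, 18 for antimiR against Day2, 22 for antimiR against Day1 and 0 for antimiR against mimic. Scaling to a common median gave 1, 0, 0, 1 and 0, and among all genes 1879, 25, 1793, 201 and 1 in place of 6088, 902, 5466, 2413 and 0. It also moved the share of calls that were higher, to 36.0% from 51.8% with the mimic, to 64.8% from 51.6% for antimiR against Day2 and to 78.6% from 56.8% against Day1. Farsb turned there from -0.47 to 0.0817 for antimiR against Day2. Array weights gave 16 synthetases for Day2 and 25 for the mimic, and 4909 genes for the mimic, 4384 for antimiR against Day1 and 527 for antimiR against mimic. Without the detection filter the mimic had 5 synthetases and 183 genes, with only the compared groups in the fit 0 and 3 (and antimiR against Day1 had 3793 genes), and without the variance trend 590 genes. The cause of these shifts was not tested. With one array left out in turn, called synthetases ranged from 6 to 15, 0 to 23, 13 to 20, 11 to 24 and 0 to 0 in the order above, and called genes from 5506 to 6680, 28 to 4017, 4603 to 6162, 647 to 3752 and 0 to 1. Where a synthetase was called, its value under an alternative stayed on the same side of the threshold in 192 of 220 cases for Day2, 155 of 286 for the mimic, 343 of 396 for antimiR against Day2 and 390 of 484 against Day1; apart from Farsb the others kept their direction and missed the threshold. Replicate numbers showed no clear pairing of the samples. Deviations of same-numbered arrays correlated from -0.55 to 0.17, 3 of 18 over 0.1, and 2 of 12 arrays correlated best with their own number. The lowest value was that of mimic replicate 1 with antimiR replicate 1. Scanner numbers, used here, differ from the processed ones for Day2 replicates 2 and 3, so pairs and blocks with these arrays are uncertain. With the number as a replicate block, the mimic had 0 called synthetases and 53 genes, antimiR against Day1 had 13 synthetases, and Day2 against Day1 and antimiR against Day2 had 8 and 15. Slide as a block was not run, since the files used here name no slide. Low values of Cars, Hars and Yars lie near background, which limits the size of change that can be seen.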
